A study of Homo sapiens with 6 samples.

Results

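The 34 genes described here encode the working parts of the lysosome: 3 MiT/TFE transcription factors, 5 peptidases, 7 glycan-degrading enzymes, the saposin precursor, 5 membrane proteins, 2 autophagy proteins and 11 subunits of the vacuolar proton pump (V-ATPase). They were chosen by name among the 19812 protein-coding symbols of the annotation, and their rows were collected from the N-Myc, JMJD6 and joint lists of bound promoters, enhancers and super-enhancers. Of the 34, 19 had a row in at least 1 list and 15 had none. No member had a row in a list of regions bound by both proteins. The shares of all symbols with a row in any list or in a joint list were not counted. JMJD6 promoters were listed for only 0.636% of all symbols and JMJD6 enhancers or super-enhancers for 0.989%. The lack of a joint row is therefore not read as a trait of the members.

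The lists come from chromatin immunoprecipitation sequencing (ChIP-Seq) in CHP-134 cells, a human neuroblastoma line with amplified MYCN and a gain of the distal part of chromosome 17q, without drug or genetic treatment. N-Myc was precipitated from 3 replicates fixed with formaldehyde alone. JMJD6 was precipitated from 3 replicates fixed with disuccinimidyl glutarate and then formaldehyde, so antibody and cross-linking cannot be told apart in any difference between the lists. The values are positions of peaks common to the 3 replicates of a protein (10172 for N-Myc, 561 for JMJD6), without height, score, read number or a value per replicate, so depth and replicate spread are unknown and a gene without a row is a gene not listed, not a gene shown to be unbound. Since all samples are of 1 cell line, the lists hold no comparison between cell types or states. Of 6 genes of adrenergic neuroblastoma, 5 (HAND2, GATA3, ISL1, TBX2 and TH) were named in N-Myc enhancers or super-enhancers, beside 32.8% of all symbols, and DBH was in neither. None of the 6 had a listed N-Myc promoter, beside 17.8% of all symbols. With so few genes, that lack is not read as a trait of them. These are binding data and give no expression level.

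Lysosomes degrade proteins, glycans and lipids with acid hydrolases, and the V-ATPase acidifies them by coupling ATP hydrolysis in its V1 sector to proton flow through its membrane V0 sector. TFEB, TFE3 and MITF, which are basic helix-loop-helix leucine zipper proteins, coordinate many of these genes through the CLEAR element, whose core is the E-box CACGTG within the longer palindrome TCACGTGA. N-Myc belongs to the same structural class and, with its partner MAX, also binds CACGTG. JMJD6 is a jumonji-domain oxygenase known as a lysyl hydroxylase and arginine demethylase. Genes of the CLEAR network were originally grouped by such a motif, so the motif content of the members is not independent of how they are known.

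The sequences that show this shared letter code lie in N-Myc peaks at member promoters, and those of 3 genes are shown. Each stretch below has 30 bases of the hg19 (GRCh37) reference, read in the direction of the gene, with the E-box in capitals, and each E-box here stands within TCACGTGA.
CTSA (chr20:44519937-44519966, + strand): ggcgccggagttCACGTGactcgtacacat
CLN3 (chr16:28503379-28503408, - strand): cgcgggtgctgtCACGTGatccgacaaacg
ATP6V1A (chr3:113465533-113465562, + strand): aagttttaagatCACGTGattggcccaaac

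For contrast, 4 members had the same 8 letters at the start site but no listed N-Myc promoter (LAMP1, MCOLN1, ATP6V0D1 and ATP6V1H). Both copies of MCOLN1 and the 2 copies nearest the start of LAMP1 are shown.
MCOLN1 (chr19:7587457-7587486, + strand): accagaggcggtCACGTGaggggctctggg
MCOLN1 (chr19:7587484-7587513, + strand): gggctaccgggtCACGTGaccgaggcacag
LAMP1 (chr13:113951514-113951543, + strand): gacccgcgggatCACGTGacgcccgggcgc
LAMP1 (chr13:113951541-113951570, + strand): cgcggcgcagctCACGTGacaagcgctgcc

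An N-Myc promoter, which the authors took to reach 1 kb to either side of a RefSeq start, was listed for 11 of the 34 members (32.4%): MITF, CTSA, HEXA, GAA, NEU1, NAGLU, CLN3, TMEM55B, ATP6V1A, ATP6V1B2 and ATP6V1D. Over all protein-coding symbols the share was 17.8% (3520 of 19812). A JMJD6 promoter was listed for 1 member, TPP1, beside 0.636% of all symbols. N-Myc enhancers named 14 members (41.2%), beside 32.8% of all symbols named in an N-Myc enhancer or super-enhancer. No member was named in an N-Myc super-enhancer or in a JMJD6 enhancer or super-enhancer, the latter beside a background of 0.989%. The N-Myc super-enhancer list has only 162 rows, and the share of all symbols named in it alone was not counted. Its lack of members is therefore not read as a trait of them. These differences from the background were not tested, because the genes were chosen with results of the same lists known.

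**Figure D1:**
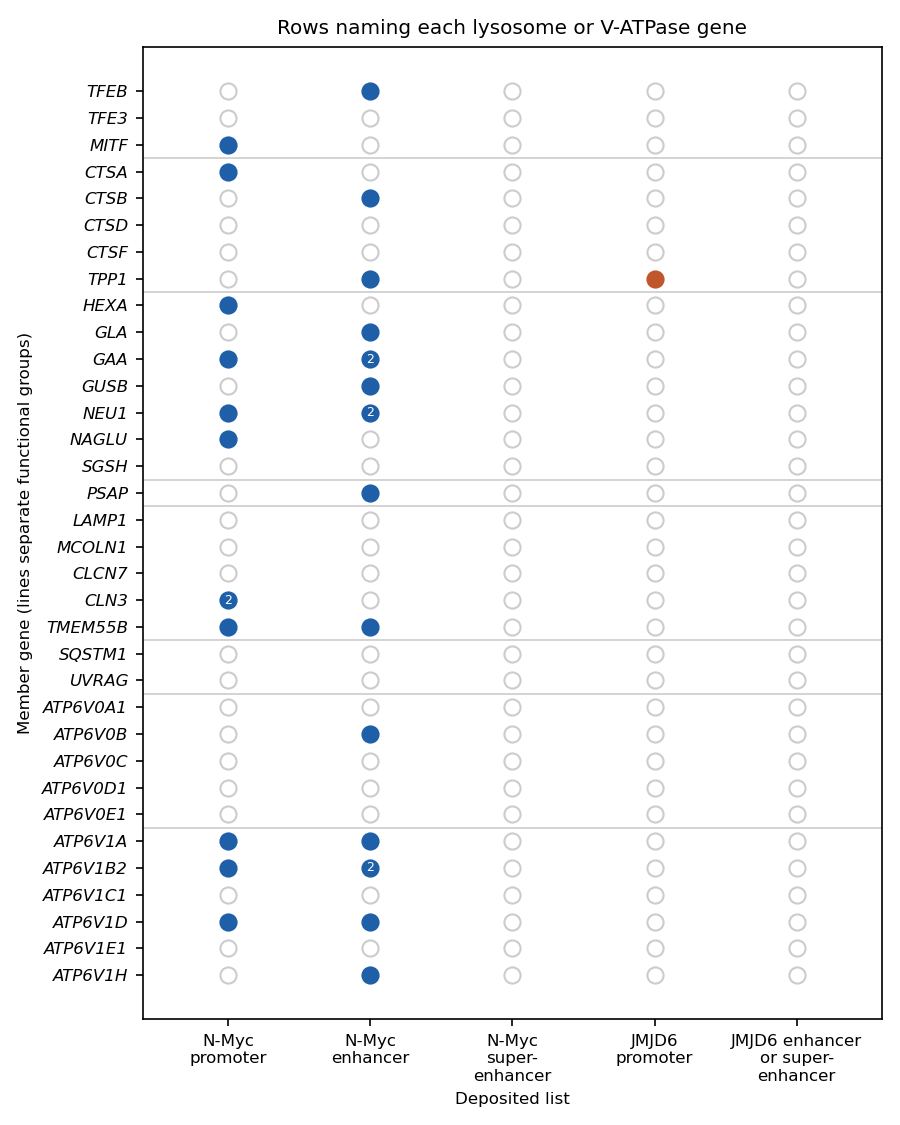
Each row is a member gene and each column a list; a filled circle marks at least 1 row naming the gene, and a number inside it the rows when there was more than 1. Filled circles stand in the N-Myc promoter column for 11 genes, in the N-Myc enhancer column for 14, and in the JMJD6 columns for TPP1 alone.

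Among the MiT/TFE regulators, 1 of 3 had an N-Myc promoter. MITF, the melanocyte lineage member of the family, had a peak of 329 bp at chr3:69788231-69788559, which ended 26 bp upstream of the listed start and held no CACGTG. MITF has many start sites, and this one is the most upstream start of the gene. TFEB, the regulator most closely tied to lysosome production, had no listed promoter but was the second gene named for an N-Myc enhancer of 3.46 kb at chr6:41642131-41645589, 58.9 kb downstream of its start. TFE3 had no row, and its nearest N-Myc peak lay 145 kb away.

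Of the peptidases, CTSA alone had an N-Myc promoter. CTSA encodes cathepsin A, a carboxypeptidase that also protects the sialidase NEU1. It had 2 peaks, at chr20:44518670-44519067 and chr20:44519561-44520046, and only the latter held E-boxes, 2 in number, 39.5 bp and 22.5 bp upstream of the canonical start. The same peaks fell in the promoter of the neighbouring gene NEURL2. CTSB, a cysteine protease, was named second in an enhancer whose peak lay in the untranslated region of FDFT1. The aspartic protease CTSD and the cysteine protease CTSF had no row, and CTSD was the member farthest from an N-Myc peak, at 427 kb.

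TPP1, the tripeptidyl peptidase that is deficient in a form of Batten disease, was the single member with JMJD6 at its promoter. The JMJD6 peak covered 701 bp at chr11:6640304-6641004, included the listed start site, held no CACGTG or CACGCG, and was not shared with an N-Myc peak. The nearest N-Myc peak was 15.7 kb away. An N-Myc enhancer named TPP1 36.0 kb upstream, but its peak was in an intron of DCHS1. The 300 bases upstream of the listed TPP1 start are shown because they lie in the JMJD6 peak; they overlap an exon of a long noncoding RNA and hold no E-box to capitalise.
TPP1 (chr11:6640693-6640992, - strand): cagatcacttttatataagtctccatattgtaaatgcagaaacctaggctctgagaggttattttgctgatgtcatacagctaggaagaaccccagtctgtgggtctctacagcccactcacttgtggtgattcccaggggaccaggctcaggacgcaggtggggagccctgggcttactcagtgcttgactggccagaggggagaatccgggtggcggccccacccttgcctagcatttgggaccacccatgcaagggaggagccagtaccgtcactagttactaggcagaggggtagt

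The TPP1 promoter had the lowest ratio of observed to expected CpG of the 34 members, 0.257 over 1 kb on each side of the start. The median was 0.640 for the 23 members without an N-Myc promoter, TPP1 among them. The ratio was not taken over JMJD6 promoters in general, so a relation to JMJD6 was not tested. GC content was 49.1%, also the lowest of the 34.

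Among the glycan-degrading enzymes, 4 of 7 had an N-Myc promoter. HEXA, the alpha subunit of beta-hexosaminidase, had a peak of 287 bp with 2 E-boxes, the narrowest of the members, and the same peak lay in the promoter of the antisense RNA HEXA-AS1. NEU1, the lysosomal sialidase, had 2 peaks, of 419 bp over the start with 1 E-box and of 884 bp upstream in an intron of SLC44A4 without one. GAA, the acid glucosidase that degrades glycogen, had a peak of 714 bp that began 268 bp downstream of the canonical start. NAGLU, which degrades heparan sulfate, had a peak of 611 bp that began 596 bp downstream of the canonical start and 905 bp from the listed one, which made it the member nearest to the edge of the promoter definition.

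GAA and NAGLU had a listed promoter and an E-box at the start, yet the E-box lay outside the peak. GAA had 2 copies of TCACGTGA, 73.5 bp and 28.5 bp upstream of the start, shown here because the N-Myc peak lies downstream of both.
GAA (chr17:78075292-78075321, + strand): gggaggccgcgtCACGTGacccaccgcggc
GAA (chr17:78075337-78075366, + strand): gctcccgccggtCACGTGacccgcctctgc

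SGSH, the heparan sulfamidase, had an E-box 69.5 bp upstream of its start and no row. GLA, the alpha-galactosidase, and GUSB, the beta-glucuronidase, were each named second in an enhancer, 16044 bp and 26.1 kb from their starts. PSAP, which encodes the precursor of the saposins that present lipids to hydrolases, was named first in an enhancer of 26.8 kb whose peak, with an E-box, lay in an intron of PSAP itself.

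Among the membrane proteins, CLN3 and TMEM55B had N-Myc promoters. CLN3, the membrane protein of juvenile Batten disease, had 2 promoter rows served by 1 peak of 491 bp with 2 E-boxes, 1 of them in the TCACGTGA form and centred 1.5 bp downstream of the canonical start. TMEM55B (listed as PIP4P1 among the promoters), a phosphatase of the lysosomal membrane that takes part in lysosome positioning, had a peak of 475 bp with 2 E-boxes, 54.5 bp and 149.5 bp upstream of the listed start. A further E-box, 75.5 bp upstream of the canonical start, lay just outside the peak. The 300 bases upstream of the listed start, which overlap no annotated exon, hold both E-boxes of the peak.
TMEM55B (chr14:20929772-20930071, - strand): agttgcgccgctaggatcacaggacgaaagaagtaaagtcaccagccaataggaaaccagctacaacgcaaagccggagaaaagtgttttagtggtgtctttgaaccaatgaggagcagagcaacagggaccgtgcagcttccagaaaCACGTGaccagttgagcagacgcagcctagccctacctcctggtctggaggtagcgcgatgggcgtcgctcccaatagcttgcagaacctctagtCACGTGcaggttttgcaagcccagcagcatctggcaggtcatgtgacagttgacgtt

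The other membrane proteins had no row, although each had at least 1 E-box at its start. LAMP1, an abundant glycoprotein of the lysosomal membrane, had 6 copies of CACGTG within 200 bp of its start, and it was the 1 protein-coding symbol of 19812 with 6 or more. The copies from 189.5 bp to 139.5 bp upstream lay close together in recurring flanking bases, so the 6 are not all separate elements. The N-Myc peak nearest to LAMP1 was 34 kb away. MCOLN1, the cation channel that releases lysosomal calcium, had 2 copies, both as TCACGTGA, and its nearest N-Myc peak lay 12.7 kb from the canonical start. CLCN7, the chloride and proton exchanger, had 2 copies and its nearest peak at 17.8 kb. MCOLN1 was also the member nearest to a JMJD6 peak without a JMJD6 row, at 28.8 kb. The autophagy receptor SQSTM1 (p62) and UVRAG, a regulator of the Beclin 1 lipid kinase complex, had neither a row nor an E-box at the start.

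In the V-ATPase, N-Myc promoters were listed for 3 of 6 V1 subunits and 0 of 5 V0 subunits, beside 17.8% of all symbols. Outside the members, the V0 subunit gene ATP6V0E2 and the V1 subunit gene ATP6V1G2 had an N-Myc promoter. With counts this small, the listing is not read as a trait of either sector. ATP6V1A encodes the catalytic subunit, and its peak of 587 bp held 1 E-box, in the TCACGTGA form, 317.5 bp upstream of the listed start. ATP6V1B2, the other subunit of the ATP-hydrolysing head, had a peak of 380 bp over the listed start. ATP6V1D, of the central rotor, had a peak of 658 bp over the listed start. Neither peak reached the canonical start, ending 137 bp upstream of it in ATP6V1B2 and 40 bp upstream in ATP6V1D. Neither held CACGTG, and each held CACGCG, a noncanonical E-box. The ATP6V1A peak lay in a promoter shared with NAA50 and the ATP6V1D peak in a promoter shared with EIF2S1. ATP6V1H was named in an enhancer 439.8 kb from its start, the longest distance among the members. ATP6V1C1 and ATP6V1E1, of the peripheral stalk region, had no row.

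Of the membrane V0 sector, ATP6V0B, a proton-carrying proteolipid, was named second in an enhancer of 10.6 kb that holds peaks on both sides of the gene, the nearest 4.74 kb from its start. ATP6V0A1, ATP6V0C, ATP6V0D1 and ATP6V0E1 had no row. ATP6V0D1 had a TCACGTGA 56.5 bp upstream of its start and its nearest N-Myc peak at 15.1 kb. An E-box lay within 200 bp of the start in 2 of 6 V1 and 3 of 5 V0 genes, beside 9.43% of all symbols. Differences between the sectors in listing or in E-boxes were not tested.

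The N-Myc peaks at member promoters were 13 in number and had a median width of 486 bp (287 to 884), beside 452 bp (189 to 2162) for the 3550 N-Myc peaks at listed promoters. Their centres lay between 912 bp upstream and 1210 bp downstream of the listed starts, and in 6 of the 11 genes a peak covered the listed start. The canonical start was covered in CTSA, HEXA, NEU1 and CLN3 only. CACGTG, counted on both strands, occurred in 6 of the 13 peaks (46.2%), close to the 36.9% of all N-Myc promoter peaks. Counting CACGCG as well, which widens the motif by a letter change, gave 69.2% and 56.9%. TCACGTGA, each copy of which also counts as a CACGTG, occurred in 4 of the 13 (30.8%), beside 2.51% of all N-Myc promoter peaks (89 of 3550), and 4 of the 13 held at least 2 copies of CACGTG, beside 6.59%. Because the motif content of the members is not independent of how they are known, these shares are not read as a trait of N-Myc binding. The 10 E-boxes lay a median of 73.5 bp from the peak centre (5.5 to 148), near the 81 bp of the 1583 E-boxes in all these peaks. Promoters of both strands were overlapped by 5 of the 13 peaks (38.5%), beside 22.0%.

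**Figure D2:**
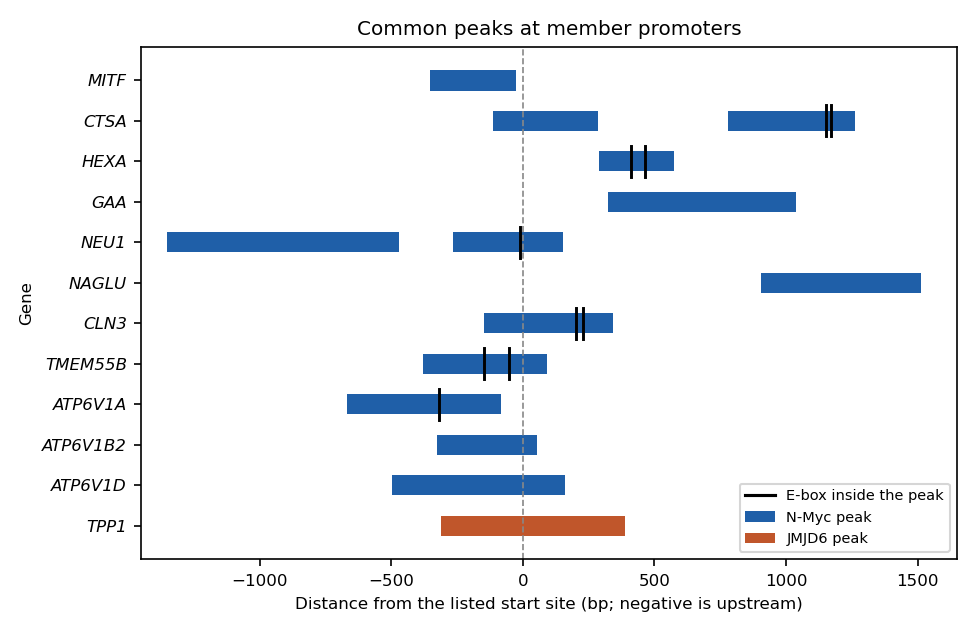
Bars show the common peaks at member promoters by distance in bp from the listed start site in the direction of the gene, blue for N-Myc and orange for JMJD6, and black ticks mark E-boxes (6-letter form) inside the peaks. Peaks cover the start in CTSA, NEU1, CLN3, TMEM55B, ATP6V1B2, ATP6V1D and, for JMJD6, TPP1, while those of HEXA, GAA and NAGLU lie wholly downstream of it.

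E-boxes at the start were far more common than N-Myc peaks over them. Of the 34 members, 19 (55.9%) had a CACGTG within 200 bp of the canonical start, beside 9.43% of all symbols, and 8 (23.5%) had TCACGTGA, beside 1.47%. Of the 19, 7 had a listed N-Myc promoter (36.8%), beside 31.3% of the 1869 symbols with such an E-box. Of the 15 members without one, 4 had a listed N-Myc promoter (MITF, ATP6V1A, ATP6V1B2 and ATP6V1D), or 26.7% beside 16.4%. Among genes with an E-box at the start, the share of members listed was thus near the background. Of the 8 members with TCACGTGA, 4 were listed (CTSA, HEXA, GAA and CLN3), and LAMP1, MCOLN1, ATP6V0D1 and ATP6V1H were not. Over all symbols with TCACGTGA there, 85 of 292 (29.1%) were listed, and the difference was not tested.

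An N-Myc peak held a start-site E-box in 4 of the 19 members (21.1%): CTSA, HEXA, NEU1 and CLN3. The share was 24.4% over all 1869 symbols with such an E-box. Counted by motif, 7 of the 33 E-boxes of members lay inside an N-Myc peak, beside 523 of 2098 over all symbols. The 12 members with an E-box and no listed promoter were CTSB, CTSD, CTSF, SGSH, LAMP1, MCOLN1, CLCN7, ATP6V0B, ATP6V0D1, ATP6V0E1, ATP6V1C1 and ATP6V1H. A match of letters is not a binding site, and the lists do not show whether another factor was bound there.

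**Figure D3:**
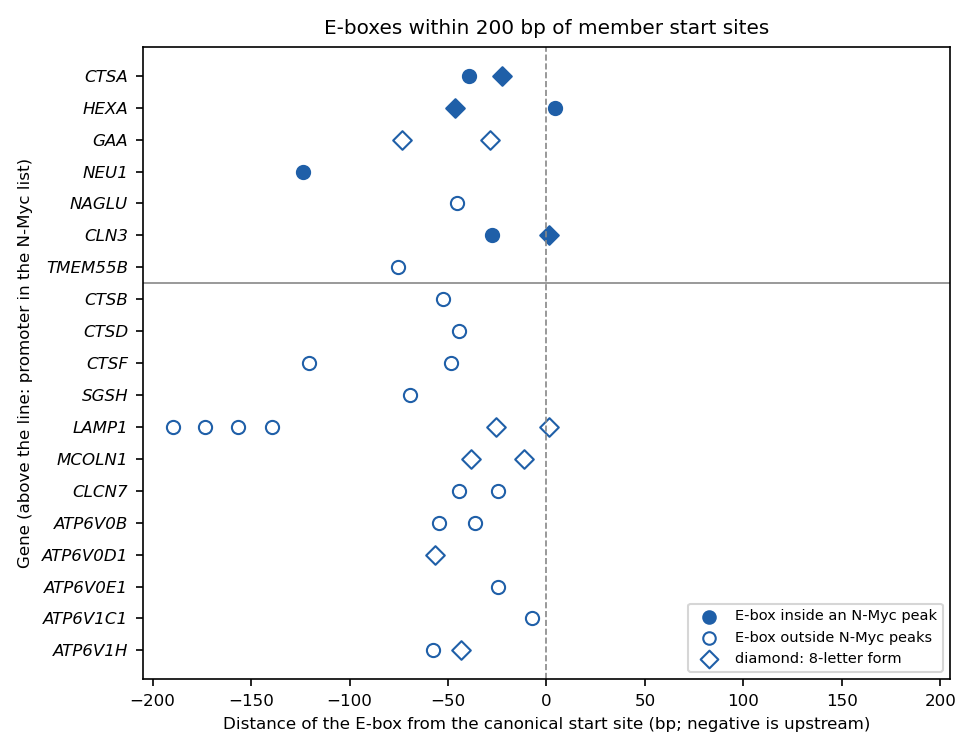
Each symbol is an E-box within 200 bp of the canonical start of a member, by distance in bp in the direction of the gene; filled symbols lie inside an N-Myc peak, diamonds stand in the 8-letter form, and genes above the line have a listed N-Myc promoter. Filled symbols are found in 4 genes, and the symbols lie upstream of the start except for 1 each in HEXA, LAMP1 and CLN3. LAMP1 has 6, the farthest 189.5 bp upstream.

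**Figure D4:**
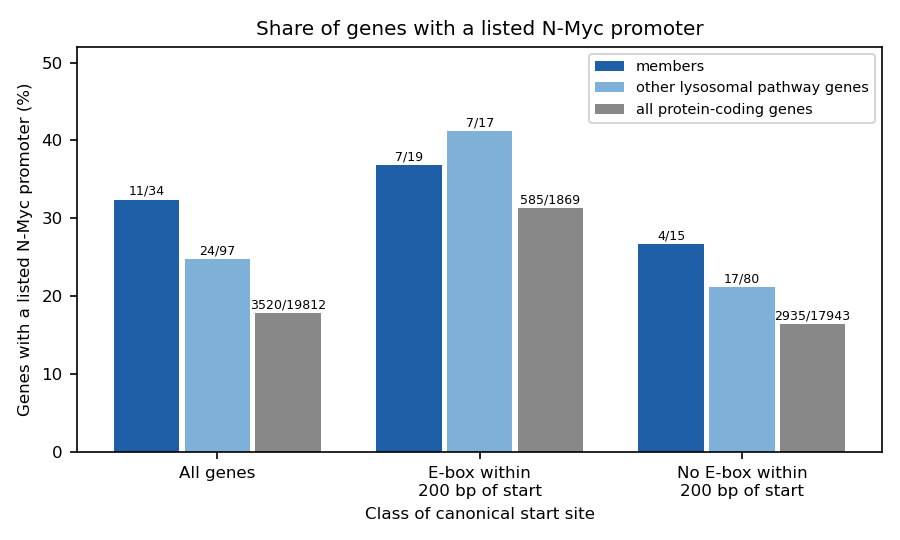
Bars give the percentage of genes with a listed N-Myc promoter among members, the 97 other lysosomal pathway genes and all protein-coding genes, for all genes and for those with or without an E-box within 200 bp of the start; numbers above are genes listed over genes in the class. Members stand at 32.4, 36.8 and 26.7%, against 17.8, 31.3 and 16.4% of all genes.

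Base composition overlapped between listed and other members. Over 1 kb on each side of the start, median GC was 56.0% (49.4 to 65.8) in the 11 members with an N-Myc promoter and 59.5% (49.1 to 70.9) in the other 23, and the median ratio of observed to expected CpG was 0.667 and 0.640. Over all symbols the corresponding medians were 56.3% and 55.9% for GC, and 0.701 and 0.612 for CpG.

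Each of the 17 enhancer rows that named the 14 members named 2 genes by distance, so a row is a weaker link to a gene than a promoter. In 6 members (GAA, NEU1, TMEM55B, ATP6V1A, ATP6V1B2 and ATP6V1D) an enhancer lay over the gene's own listed promoter, so that the same peaks were counted in both lists. The other 8 members had an enhancer and no N-Myc promoter (TFEB, CTSB, TPP1, GLA, GUSB, PSAP, ATP6V0B and ATP6V1H). Only 6 rows, naming TFEB, GLA, GUSB, PSAP, ATP6V1B2 and ATP6V1H, overlapped no listed promoter of any gene, and 7 members were the first gene named. The matching shares over all symbols were not counted, so these counts describe the rows and are not read as traits of the members.

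The distance from the canonical start to the nearest N-Myc peak had a median of 17.1 kb in the members and 57.8 kb over all symbols. A peak lay within 1 kb in 11 members (32.4%, beside 17.7%), within 10 kb in 12 (35.3%, beside 25.5%) and within 100 kb in 27 (79.4%, beside 62.1%). Since a listed promoter reaches 1 kb from a start, the share within 1 kb largely repeats the promoter listing and is no separate result. Between NAGLU, the farthest listed member, and ATP6V0B, the nearest unlisted one, there was a gap from 0.596 to 4.74 kb. For JMJD6 the medians were 2167 kb and 2539 kb.

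**Figure D5:**
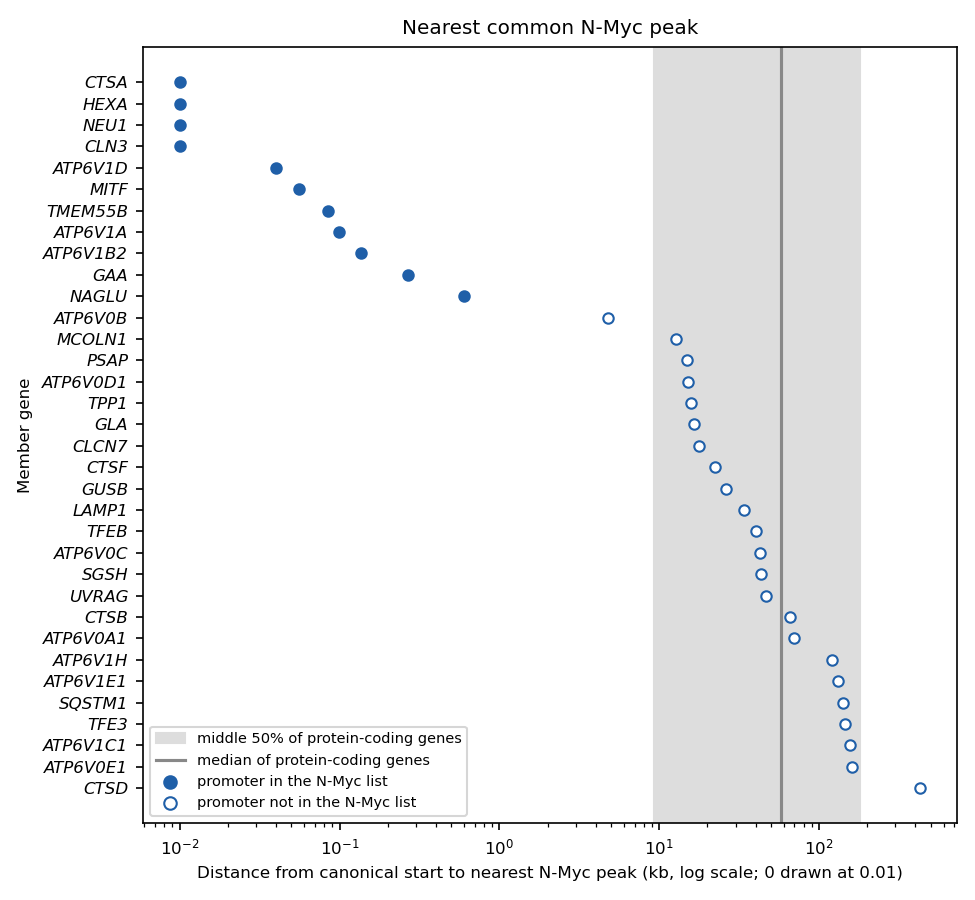
Points give the distance in kb (log axis, overlaps drawn at 0.01) from the canonical start of each member to the nearest common N-Myc peak, filled where the promoter was listed; the grey band and line are the middle 50% and the median of all protein-coding genes. The 11 listed members all lie under 1 kb, which largely follows from the promoter definition, and the others between 4.74 and 427 kb.

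Location touched 2 of these counts. The promoter rows used here include none on chromosome X, where TFE3 and GLA lie, although 120 N-Myc peaks are there; without these genes 11 of 32 members were listed, beside 18.6% of autosomal symbols, and neither gene had an N-Myc peak within 10 kb. On chromosome 17q, whose distal part is gained in this line, GAA and NAGLU were listed and SGSH and ATP6V0A1 were not, and 25.8% of the 831 symbols of that arm were listed. The part of copy number in these counts was not tested.

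Of 97 further genes of the lysosomal pathway, 24 (24.7%) had an N-Myc promoter, beside 17.8% of all symbols, and 38 (39.2%) an N-Myc enhancer or super-enhancer, beside 32.8%. The differences were not tested. By group, N-Myc promoters were listed for 8 of 20 autophagy and endosomal tethering genes, 6 of 18 genes of mTORC1 control at the lysosome, 3 of 15 membrane proteins, 5 of 30 hydrolases and their cofactors, and 2 of 14 other V-ATPase subunits. VPS35, counted among the 8 and the 24, had a promoter row that held no common N-Myc peak. An E-box lay within 200 bp of the start in 17 of the 97 (17.5%, beside 9.43%), and 7 of these 17 were listed (41.2%, beside 31.3%). TCACGTGA stood in the N-Myc promoter peak of BECN1 (Beclin 1, at chr17:40976265-40976623), and of VPS11 and VPS33A, both subunits of the tethering complexes that bring vesicles to the lysosome. The centre of the BECN1 peak lay in the untranslated region of the neighbouring gene PSME3.

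JMJD6 promoters were listed for 1 of the 97, beside 0.636% of all symbols, and JMJD6 enhancers for 2, beside 0.989%, counts too small to set apart from the background. The genes were LAMTOR1 and LAMTOR2, subunits of the Ragulator complex, which anchors mTORC1 signalling to the lysosome. LAMTOR2 had a JMJD6 promoter with a peak of 667 bp at chr1:156024008-156024674 that was also an N-Myc peak, was listed as bound by both proteins, held no CACGTG and lay in a promoter shared with UBQLN4. LAMTOR1 was named in a JMJD6 enhancer whose peak, at chr11:71791524-71792144, was not also an N-Myc peak and lay in the listed promoters of LRTOMT and NUMA1. LAMTOR1 was named in an N-Myc enhancer too. Its own N-Myc promoter held a separate peak of 381 bp with 1 CACGTG, at chr11:71814395-71814775.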

How the data were processed

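ChIP-Seq samples from CHP-134 cells formed 2 groups by antibody, N-Myc and JMJD6, with 3 replicates each. According to the study's methods and the submitters' processing notes, the authors aligned reads with BWA, used SAMtools and bedtools on the alignments, and ran MACS2 against input DNA (version 2.1.1.20160309) on hg19 to call peaks. The 12 deposited lists hold positions in bp and, for promoters and enhancers, gene symbols. Promoters were RefSeq starts with 1 kb on each side. Enhancers came from ROSE on H3K27ac, and their genes by distance. No list has scores or values per sample, so depth, precision and replicate spread are unknown.

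The 34 members, the 97 pathway genes and all comparisons were chosen with earlier results of these data known, and no test was run. All 34 members are named. Some marker genes and a sequence covered by the rules are not reported here. Of the pathway genes, those in a JMJD6 list or with TCACGTGA in an N-Myc promoter peak are named. VPS35 is named as well, for its promoter row without a common N-Myc peak. So are ATP6V0E2 and ATP6V1G2, as the other V-ATPase subunits with an N-Myc promoter. LAMP1 was singled out for its E-box number after its values were seen. Symbols were matched with older RefSeq names (TMEM55B as PIP4P1). Starts and annotation came from GENCODE version 44 lifted to GRCh37. The canonical start is that of the Ensembl canonical transcript, and the listed start is the centre of the promoter row. Of 4455 N-Myc promoter rows with a protein-coding symbol, 3918 (87.9%) were centred within 100 bp of an annotated start. Peaks and regions overlapped from 1 bp. Motifs were counted on both strands. Python 3.11.15, numpy 2.4.6, pysam 0.24.0 and matplotlib 3.10.9 were used, and the procedures were tested on simulated data.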

Additional observations from a re-analysis of the deposited data

How the results depend on the processing

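A count or a width was held the same within a ratio of 1.5, and a share within the exact 95% binomial interval of its main value, which is wide for 13 peaks and narrow for 19812 symbols. By these limits 21 of 25 alternatives left the value the same and 4 moved it. Some of the 21 could hardly move, such as the JMJD6 enhancer count of 0, which a narrower rule can only keep. The tally is therefore no measure of robustness. Members with an N-Myc enhancer numbered 14, but 7 when only rows naming the member first were counted and 6 when rows over any listed promoter were left out. The share of all genes with an N-Myc promoter was 17.8%, but 6.35% over all gene symbols, which include noncoding genes, and 18.6% over autosomal symbols. The last, the E-box windows and the run without older names were chosen after seeing the data. Members with an N-Myc promoter numbered between 8, with peaks at least as wide as the median N-Myc peak (418 bp), and 12, with 2 kb around any annotated start, which added MCOLN1. The start that added MCOLN1 was not its canonical one, from which the nearest N-Myc peak lay 12.7 kb downstream. The share of member promoter peaks with CACGTG was 30.8% within 100 bp of the peak centre and 46.2% over the whole peak. Members with a start-site E-box numbered from 18 (100 bp) to 25 (1 kb).

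No paired analysis was possible because the lists hold no column per sample, and for the same reason no replicate was left out in turn. The lists give no score, and peak width stood in for a stricter threshold. The depth behind a list is unknown, so absence from it is no measure of unbound DNA.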
